A study of Mus musculus with 6 samples.

Results

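The genes described here are 10 mucins of the mouse, the gel-forming mucins Muc5b, Muc5ac, Muc6 and Muc2 and the membrane mucins Muc1, Muc4, Muc13, Muc15, Muc16 and Muc20, out of 24647 genes named on the arrays. They were found by their gene symbol, and 11 of the 34365 probe sets carry one of these symbols, since Muc2 has 2 probe sets. All 10 mucins were measured and none was filtered out. The tissue was metaplasia at the squamo-columnar junction (SCJ), excised as nodules from the border between the squamous forestomach and the glandular stomach of transgenic mice of the strain C57/BL6. The *K14-Cdx2::L2-IL-1β* mice (labelled Cdx2/IL-1B, samples 52540, 52541 and 52542) carry both transgenes, and the *L2-IL-1β* mice (labelled IL-1B, samples 52543, 52544 and 52545) carry the cytokine transgene alone. The L2 promoter drives human IL-1β in squamous cells that line the mouth, esophagus and forestomach, and the keratin 14 promoter drives the intestinal transcription factor Cdx2 in basal squamous cells. Mice of both genotypes drank 0.2% deoxycholic acid, a bile acid, for 12 months from 8 weeks of age. The nodules were taken whole. The samples of a genotype are described as biological replicates, while the number of mice behind a sample is not stated, and the p-values measure the spread between these samples. Wild-type tissue and nodules without the IL-1β transgene were not analysed here.

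Mucins are long proteins whose serine- and threonine-rich stretches are covered with O-linked sugars. Gel-forming mucins are stored in granules, secreted and linked through cysteine-rich ends into mucus, whereas membrane mucins stay anchored to the apical cell surface, where some of them also signal through a short tail. In the mouse stomach Muc5ac is made by surface mucous cells and Muc6 by neck and gland cells. Muc2 builds the mucus of intestinal goblet cells, and Muc5b is known mainly from salivary glands, airways and submucosal glands. The comparison asks which of these products differed between nodules with and without the Cdx2 transgene.

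Among the 10 mucins, Muc5b was the 1 that passed the test, and its level was lower by 5.62-fold with the Cdx2 transgene, in *K14-Cdx2::L2-IL-1β* against *L2-IL-1β* nodules. Muc5ac, its neighbour on chromosome 7, had a higher mean in *K14-Cdx2::L2-IL-1β* nodules by 2.33-fold, which did not pass. Muc2, the goblet cell mucin, was near the median of all probe sets in every array of both genotypes by the brighter of its 2 probe sets. The other Muc2 probe set lay below that median in every array, from 5.83 to 6.08. A difference was called at an adjusted p under 0.10 in a limma fit over all 34365 probe sets, with Benjamini-Hochberg adjustment. In that fit 1.26% of all probe sets were called lower in *K14-Cdx2::L2-IL-1β* samples, 0.576% were called higher and 1.84% were called in either direction. Of the mucins, 1 of 10 was called lower and 0 of 10 higher, while at an unadjusted p under 0.05 2 were lower, against 7.68% of all probe sets, and 1 was higher, against 6.0% of all probe sets. The test named in the methods, significance analysis of microarrays (SAM), rebuilt here from the deposited values, also called 1 lower and 0 higher, against 2.99% of all probe sets lower and 1.82% higher by SAM. The genotypes did not overlap, with *K14-Cdx2::L2-IL-1β* lower, for 2 of the 10 mucins, against 11.5% of all probe sets, and with *K14-Cdx2::L2-IL-1β* higher for 0 of the 10, against 8.30% of all probe sets.

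**Figure D1:**
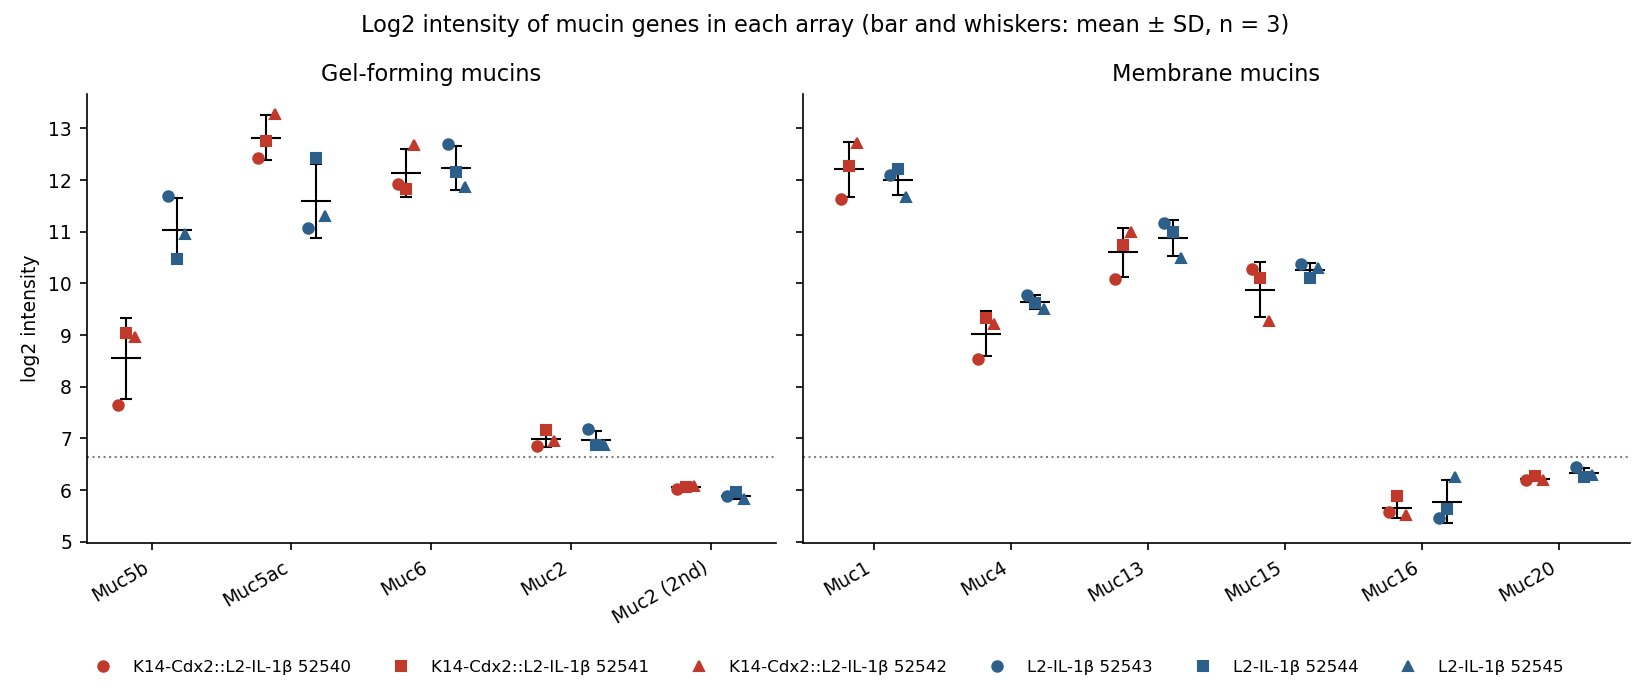
Log2 intensity of each mucin probe set in each array, with *K14-Cdx2::L2-IL-1β* in red left of *L2-IL-1β* in blue; bars and whiskers give the mean ± SD (n = 3 each) and the dotted line the median of all probe-set means, 6.64. The Muc5b points of the genotypes lie apart, with all *K14-Cdx2::L2-IL-1β* values at or below 9.04 and all *L2-IL-1β* values at or above 10.48.

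Some facts of the arrays bear on all genes. The values are log2 intensities as deposited, with array medians from 6.62 to 6.65, and how they were normalized is not stated in the sources used. Cdx2 had log2 intensities of 9.04, 9.72 and 9.83 in *K14-Cdx2::L2-IL-1β* nodules, against 6.74, 6.87 and 6.80 in *L2-IL-1β* nodules, which follows the labels (log2 fold change, log2FC, 2.73, SE 0.20, adjusted p = 0.010 in limma). Without sample 52543 the adjusted p of Cdx2 was 0.11. Over all probe sets, sample 52540 had a mean correlation of 0.987 with its own genotype and 0.990 with the other. Sample 52542 stood apart by pancreatic acinar genes, whose mean over 10 markers was 9.20 there, against 5.97 and 6.09 in the other *K14-Cdx2::L2-IL-1β* arrays and 5.88 to 6.09 in *L2-IL-1β* arrays. Of those 10 markers, 0 were called in limma, by SAM or at an unadjusted p under 0.05. All squamous, gastric surface and columnar epithelial markers had means above the median of all probe sets, 6.64, as did all but 1 of 7 intestinal markers. The 1 below it was Cdh17, with means of 5.98 in *K14-Cdx2::L2-IL-1β* and 5.94 in *L2-IL-1β* samples. Fabp2 lay near it, with means of 7.14 and 6.52, while the intestinal list also holds Cdh1, the E-cadherin gene, with means of 12.37 and 12.52.

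The gel-forming mucins share a block of chromosome 7, in the order Muc6, Muc2, Muc5ac and Muc5b. In the positions of the deposited annotation (build NCBIM37) Muc6 spans chr7:148819948-148841207 on the minus strand, Muc5ac spans chr7:148974916-149005040 and Muc5b spans chr7:149024977-149058990, both on the plus strand. For Muc2 the deposited annotation field, which is cut short, gives chromosome 7 and no position. RefSeq windows from 250 bases before to 50 bases after a gene start (build GRCm38.p6) were found for 7 of the 10 mucins, as 8 windows, since Muc13 has 2. Muc5b, Muc5ac and Muc15 have no entry in that table. The 250 bases before the start are shown for the pair of gel-forming mucins in the cluster that have an entry, and for Muc4, the mucin with a match to the homeobox motif. Capitals mark matches to TATAAA (the TATA box) and TTTATNG (a Cdx2-type homeobox motif), searched on both strands.
Muc2, chr7:141690090-141690339, plus strand: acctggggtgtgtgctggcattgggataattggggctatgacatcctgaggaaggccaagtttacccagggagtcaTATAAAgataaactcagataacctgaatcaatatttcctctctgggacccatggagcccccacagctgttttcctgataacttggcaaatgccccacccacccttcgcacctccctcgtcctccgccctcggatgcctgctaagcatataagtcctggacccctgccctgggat
Muc6, chr7:141655394-141655643, minus strand: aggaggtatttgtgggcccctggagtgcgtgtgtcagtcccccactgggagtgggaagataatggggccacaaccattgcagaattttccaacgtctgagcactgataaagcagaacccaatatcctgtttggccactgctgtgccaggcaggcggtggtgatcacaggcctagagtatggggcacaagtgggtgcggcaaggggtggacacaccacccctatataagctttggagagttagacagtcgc
Muc4, chr16:32735636-32735885, plus strand: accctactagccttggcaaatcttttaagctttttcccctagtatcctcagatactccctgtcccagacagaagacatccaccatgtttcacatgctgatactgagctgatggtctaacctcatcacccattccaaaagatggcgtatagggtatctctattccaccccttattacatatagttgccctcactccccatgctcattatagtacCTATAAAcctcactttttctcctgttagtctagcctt

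TTTATNG was found in 1 of the 8 mucin windows and in 10.9% of all 32851 promoter windows. The match lies 37 bases before the start of Muc4, on the minus strand, and it shares 6 bases with the TATAAA at 36 bases before the start, so that 1 stretch of letters carries both motifs. TATAAA was found in 3 of the 8 mucin windows, those of Muc1, Muc2 and Muc4, and in 13.6% of all windows. In Muc1 it lies 31 bases and in Muc2 it lies 174 bases before the start. A κB-type motif of 10 letters, which overlaps neither of the others there, was found in 1 of the 8 mucin windows, 24 bases after the start of Muc16, and in 1.47% of all windows. These matches describe letters in the reference and were set against no measurement.

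Muc5b, a gel-forming mucin of salivary and airway glands, had log2 intensities of 7.65, 9.04 and 8.96 in *K14-Cdx2::L2-IL-1β* nodules, against 11.69, 10.48 and 10.95 in *L2-IL-1β* nodules. Every *K14-Cdx2::L2-IL-1β* array lay below every *L2-IL-1β* array, with a gap of 1.44 between the nearest arrays of the genotypes, and sample 52540 was the lowest. It averaged 8.55 ± 0.78 in *K14-Cdx2::L2-IL-1β* samples and 11.04 ± 0.61 in *L2-IL-1β* samples (SD, n = 3 each). The log2FC was -2.49 (SE 0.45, 95% interval -3.57 to -1.41), with an adjusted p of 0.080 in limma and an exact permutation p of 0.10, two-sided, the smallest that 3 arrays against 3 allow. Of all 34365 probe sets, 7 had a log2 fold change at or below that of Muc5b, itself included, and the lowest and highest 5% of all fold changes began at -0.34 and 0.37. In bulk tissue fewer cells of a type and less RNA per cell cannot be told apart.

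The direction of the Muc5b difference did not turn with any array left out, whereas the call did depend on the arrays. The difference ran from -2.77 to -2.04 on the log2 scale when each array was left out in turn. In limma the adjusted p was 0.052 without sample 52540 and 0.098 without 52542, but 0.16 without 52541, 0.29 without 52543, 0.17 without 52544 and 0.21 without 52545. With SAM it was 0.029.

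Genes of salivary-type and airway-type glands were lower in part in the same arrays. Of 8 such marker genes measured, 2 were called lower and 0 higher (1.26% and 0.576% over all probe sets). Their median log2 fold change was -0.21. Lpo, the lactoperoxidase of saliva and airway fluid, had log2 intensities of 8.23, 8.97 and 8.17 in *K14-Cdx2::L2-IL-1β* nodules, against 11.04, 10.87 and 10.61 in *L2-IL-1β* nodules (log2FC -2.39, SE 0.23, adjusted p = 0.021 in limma). Ltf, which encodes the iron-binding lactoferrin of glands and neutrophils, had 11.49, 11.54 and 11.20 in *K14-Cdx2::L2-IL-1β* nodules, against 12.37, 12.12 and 12.03 in *L2-IL-1β* nodules (log2FC -0.76, SE 0.13, adjusted p = 0.065 in limma). Both genes were lower with no overlap between genotypes, which held for 11.5% of all probe sets, and 6 of the 8 markers were not called. Bpifb1 and Pigr, which encode a secreted airway protein and the receptor that carries IgA into secretions, overlapped between genotypes (log2FC -0.24 and -0.19), and Bpifa1, at 4.84 to 4.91 in *K14-Cdx2::L2-IL-1β* arrays and 4.67 to 4.77 in *L2-IL-1β* arrays, did not overlap in the opposite direction. Bpifa2, Scgb3a1 and Dcpp1 overlapped between genotypes as well (log2FC -0.07, -0.18 and -0.24). The mean over the 8 markers was 8.41 to 8.59 in *K14-Cdx2::L2-IL-1β* arrays and 8.87 to 9.01 in *L2-IL-1β* arrays. That mean includes Lpo, which had the log2FC furthest from 0 among the 8. By their own means 3 of the 8, Bpifa1, Bpifa2 and Dcpp1, were below the median of all probe sets. Leukocyte markers also differed by genotype, with a mean over 8 genes of 8.22 to 8.47 in *K14-Cdx2::L2-IL-1β* arrays and 9.15 to 9.27 in *L2-IL-1β* arrays. Of the 8, 3 were called lower and 0 higher (1.26% and 0.576% over all probe sets). The 3 were Ly6g, a neutrophil gene, and S100a9 and S100a8, which are known from neutrophils and also from squamous epithelium. The B cell gene Cd79a had a log2FC of 0.35 and was not called. At an unadjusted p under 0.05, 6 of the 8 were lower and 0 higher (7.68% and 6.0% over all probe sets). SAM called 4 lower and 0 higher (2.99% and 1.82%), and 7 were lower with no overlap between genotypes (11.5%). Within the *K14-Cdx2::L2-IL-1β* arrays 52540, 52541 and 52542 the gland mean was 8.41, 8.59 and 8.42. The leukocyte mean was 8.39, 8.47 and 8.22 in these arrays, and Muc5b was 7.65, 9.04 and 8.96. The part of gland or leukocyte content in the Muc5b difference was not tested. Among the fits with an array left out, Lpo did not pass without 52543 (0.15) or 52544 (0.11), S100a8 did not without 52543 (0.15) or 52545 (0.11), S100a9 passed in all 6, and Ltf and Ly6g passed only without 52540 (0.064 and 0.077) or 52542 (0.088 and 0.099).

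Muc5ac, the mucin of gastric surface mucous cells, had log2 intensities of 12.42, 12.76 and 13.28 in *K14-Cdx2::L2-IL-1β* nodules, against 11.08, 12.42 and 11.31 in *L2-IL-1β* nodules. The lowest *K14-Cdx2::L2-IL-1β* array and the highest *L2-IL-1β* array met at 12.42, and the other *L2-IL-1β* arrays were lower by over 1 log2 unit. It averaged 12.82 ± 0.43 in *K14-Cdx2::L2-IL-1β* samples and 11.60 ± 0.72 in *L2-IL-1β* samples (SD, n = 3 each). This gave a log2FC of 1.22 (SE 0.38, 95% interval 0.31 to 2.13), with an adjusted p of 0.24 in limma and an exact permutation p of 0.20, two-sided, and 92 probe sets had a fold change at or above it. The difference was therefore not called, and it stayed between 0.96 and 1.63 on the log2 scale when each array was left out. Sample 52544 was the *L2-IL-1β* array at 12.42. Of the 7 gastric surface markers, a list that holds Muc5ac itself, 0 were called in either direction in limma or by SAM. At an unadjusted p under 0.05, 1 was lower, Gkn3 (log2FC -0.78), and 1 was higher, which was Muc5ac itself (7.68% and 6.0% over all probe sets). The rest of the list had log2FC from 0.13 (Gkn2) to 0.50 (Vsig1).

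Muc6, the mucin of gastric neck and gland cells, had log2 intensities of 11.92, 11.82 and 12.68 in *K14-Cdx2::L2-IL-1β* nodules, against 12.70, 12.15 and 11.86 in *L2-IL-1β* nodules. The genotypes overlapped over most of their ranges, and the highest array of each, 52542 at 12.68 and 52543 at 12.70, nearly matched. Its log2FC was -0.09 (SE 0.29, 95% interval -0.79 to 0.60, adjusted p = 0.93 in limma), an interval that leaves room for a change of either sign. Gastric gland markers other than mucins gave a median log2 fold change of 1.20 over 6 genes, of which 0 were called in limma or by SAM. At an unadjusted p under 0.05, 2 were higher and 0 lower (6.0% and 7.68% over all probe sets). The genotypes did not overlap, with *K14-Cdx2::L2-IL-1β* higher, for 4 of the 6, against 8.30% of all probe sets.

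Muc2, the mucin of intestinal goblet cells, is measured by a probe set of 9 probes on a partial coding sequence and by a probe set of 28 probes on a complete coding sequence. The first, which has the higher mean and stands for the gene, had log2 intensities of 6.85, 7.17 and 6.95 in *K14-Cdx2::L2-IL-1β* nodules, against 7.18, 6.88 and 6.87 in *L2-IL-1β* nodules. Its log2 fold change was 0.01 (SE 0.12, 95% interval -0.28 to 0.30, adjusted p = 0.98 in limma). The genotypes covered the same range in this probe set. The second had 6.03, 6.06 and 6.08 in *K14-Cdx2::L2-IL-1β* nodules, against 5.88, 5.97 and 5.83 in *L2-IL-1β* nodules. Here the *K14-Cdx2::L2-IL-1β* arrays lay above the *L2-IL-1β* arrays with no overlap, by a log2 fold change of 0.17 (SE 0.07, 95% interval 0.01 to 0.32) that did not pass (adjusted p = 0.34 in limma). The probe sets thus disagreed on overlap, and neither was called. Of 7 intestinal epithelial markers, 1 was called higher (0.576% over all probe sets). That marker was Cdhr5, a protocadherin of the brush border, at a log2 fold change of 2.84 (adjusted p = 0.077 in limma). Among the fits with an array left out, Cdhr5 passed only without 52540 (0.035) or 52542 (0.046).

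**Figure D2:**
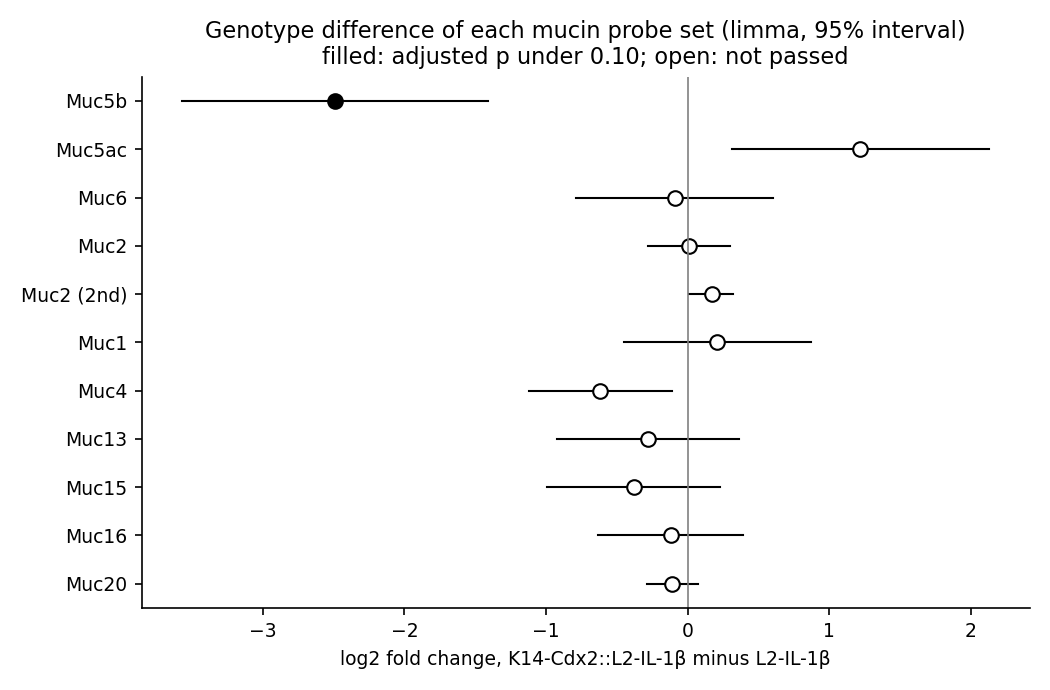
Log2 fold change of each mucin probe set, *K14-Cdx2::L2-IL-1β* minus *L2-IL-1β*, as points with 95% intervals from limma; the filled point passed an adjusted p under 0.10. Muc5b at -2.49 is the filled point, the intervals of Muc5ac, Muc4 and the second Muc2 probe set also exclude 0, and all others include it.

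Muc5b was next set against each other gel-forming mucin inside each array, which removes any scaling shared by both genes. Muc5b minus Muc5ac was -4.78, -3.72 and -4.32 in *K14-Cdx2::L2-IL-1β* arrays, against 0.61, -1.94 and -0.36 in *L2-IL-1β* arrays, a genotype difference of -3.71 on the log2 scale. Muc5b minus Muc6 was -4.28, -2.78 and -3.72 in *K14-Cdx2::L2-IL-1β* arrays, against -1.01, -1.67 and -0.91 in *L2-IL-1β* arrays, a difference of -2.40. Muc5b minus Muc2 was 0.79, 1.87 and 2.01 in *K14-Cdx2::L2-IL-1β* arrays, against 4.51, 3.60 and 4.07 in *L2-IL-1β* arrays, a difference of -2.50. Since Muc6 and Muc2 had log2FC near 0, their pairs restate the Muc5b value, and the 3 differences are given as a description with no test.

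The genes on either side of the gel-forming cluster did not pass the test. Ap2a2, an adaptor protein gene 1.0 kb beyond Muc6, had log2 intensities of 10.54, 10.40 and 10.55 in *K14-Cdx2::L2-IL-1β* nodules, against 10.59, 10.56 and 10.67 in *L2-IL-1β* nodules (log2FC -0.11, SE 0.07, adjusted p = 0.57 in limma). Tollip, which encodes a regulator of Toll-like and IL-1 receptor signalling and lies 8.5 kb beyond Muc5b, had 10.40, 10.36 and 10.39 in *K14-Cdx2::L2-IL-1β* nodules, against 10.47, 10.38 and 10.43 in *L2-IL-1β* nodules (log2FC -0.04, SE 0.06, adjusted p = 0.81 in limma). The arrays of a genotype were close together in both genes. The further neighbours Chid1, Tspan4, Brsk2 and Mob2 had log2 fold changes from -0.22 to 0.12.

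**Figure D3:**
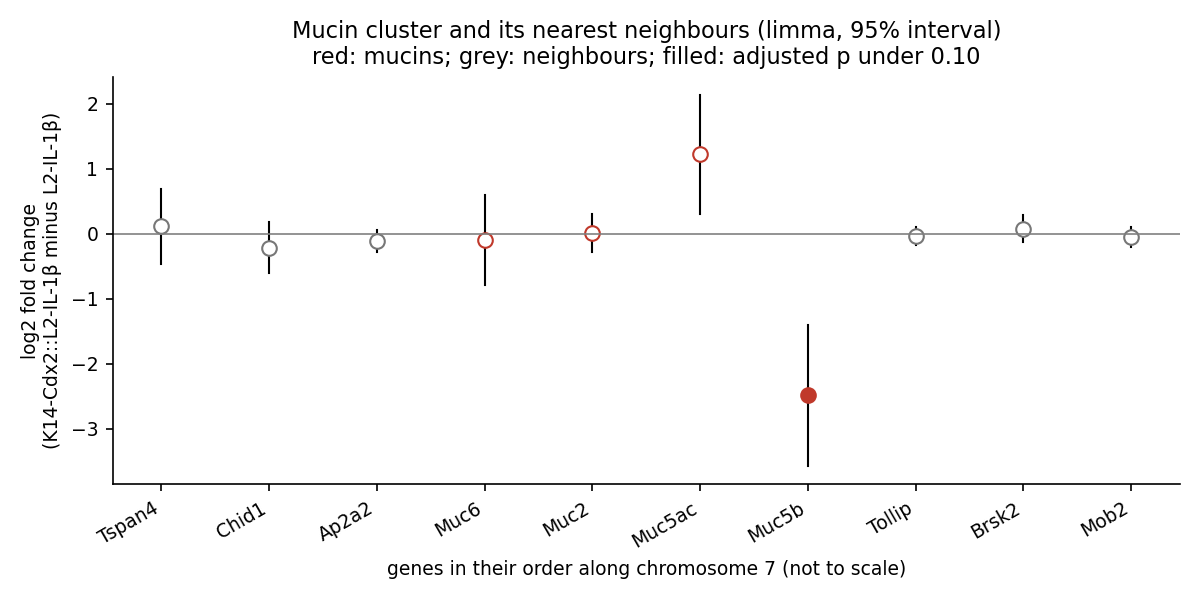
Log2 fold change (*K14-Cdx2::L2-IL-1β* minus *L2-IL-1β*) with 95% limma intervals for the chromosome 7 mucins (red) and the 3 nearest named genes on each side (grey), in gene order and not to scale; filled points passed an adjusted p under 0.10. Muc5ac at 1.22 and Muc5b at -2.49 stand side by side, and the 6 neighbours lie between -0.22 and 0.12.

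Among the membrane mucins, 0 of 6 were called in either direction in limma or by SAM, and at an unadjusted p under 0.05 1 was lower (7.68% over all probe sets). Their median log2 fold change was -0.20, against -0.01 over all probe sets. Muc4, a large membrane mucin with EGF-like domains that binds ErbB2, had log2 intensities of 8.53, 9.33 and 9.22 in *K14-Cdx2::L2-IL-1β* nodules, against 9.78, 9.63 and 9.51 in *L2-IL-1β* nodules. All *K14-Cdx2::L2-IL-1β* arrays were below all *L2-IL-1β* arrays, by a gap of 0.18, and 52540 was again the lowest. This gave a log2FC of -0.62 (SE 0.21, 95% interval -1.12 to -0.11, adjusted p = 0.28 in limma). Muc4 lies at chr16:32735972-32782477 on the plus strand and Muc20 at chr16:32777505-32797521 on the minus strand (NCBIM37), so that their annotated spans overlap at their ends.

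Muc1, a mucin of the apical surface of most glandular epithelia, had log2 intensities of 11.64, 12.27 and 12.71 in *K14-Cdx2::L2-IL-1β* nodules, against 12.09, 12.21 and 11.68 in *L2-IL-1β* nodules. The *K14-Cdx2::L2-IL-1β* arrays spread on both sides of the *L2-IL-1β* arrays. The log2FC was 0.21 (SE 0.28, 95% interval -0.45 to 0.87, adjusted p = 0.79 in limma). Muc1 spans chr3:89032979-89037303 (NCBIM37). Muc13, a membrane mucin abundant on gut epithelium, had 10.08, 10.74 and 10.99 in *K14-Cdx2::L2-IL-1β* nodules, against 11.17, 10.99 and 10.49 in *L2-IL-1β* nodules. The ranges overlapped again, and the lowest array was 52540. Its log2 fold change was -0.28 (SE 0.27, 95% interval -0.92 to 0.36, adjusted p = 0.71 in limma), and its position is chr16:33794123-33820013 (NCBIM37).

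Muc15, a small membrane mucin first described in cow's milk, had log2 intensities of 10.27, 10.10 and 9.27 in *K14-Cdx2::L2-IL-1β* nodules, against 10.37, 10.11 and 10.29 in *L2-IL-1β* nodules. In that gene sample 52542 stood below the 5 other arrays, which lay between 10.10 and 10.37. The log2FC was -0.38 (SE 0.26, adjusted p = 0.58 in limma), and it was -0.07 without the sample 52542. Its position is chr2:110561497-110579684 (NCBIM37). Muc16, known in humans as the CA125 antigen that binds mesothelin, had 5.58, 5.88 and 5.51 in *K14-Cdx2::L2-IL-1β* nodules, against 5.46, 5.63 and 6.25 in *L2-IL-1β* nodules, and its annotation gives chromosome 9 and no position. Muc20, known in human cells to bind the receptor MET, had 6.19, 6.27 and 6.19 in *K14-Cdx2::L2-IL-1β* nodules, against 6.44, 6.25 and 6.29 in *L2-IL-1β* nodules. Both were below the median of all probe sets, 6.64, in every array, with adjusted p of 0.86 for Muc16 and 0.59 for Muc20 in limma. The 6 named genes on the sides of Muc4 and Muc20 (Gm10818, Tfrc, Zdhhc19, 1700021K19Rik, Fyttd1 and Lrch3) and the 6 on the sides of Muc13 (Heg1, Slc12a8, Zfp148, Itgb5, Umps and Kalrn) were not called either.

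The mucins also differed in which array of a genotype was high or low. In *K14-Cdx2::L2-IL-1β* nodules Muc5b, Muc5ac, Muc2, Muc1, Muc4 and Muc13 were lowest in sample 52540, and Muc5ac, Muc6, Muc1 and Muc13 were highest in sample 52542. Muc15 went the other way, highest in 52540 at 10.27 and lowest in 52542 at 9.27, and Muc16 was also lowest in 52542. Columnar epithelial markers (6 genes, keratins 8, 18 and 19 among them) rose from 52540 to 52542. Their means were 11.15, 11.66 and 12.16 in the *K14-Cdx2::L2-IL-1β* arrays 52540, 52541 and 52542, against 11.27, 11.60 and 10.98 in the *L2-IL-1β* arrays 52543, 52544 and 52545. Gastric gland markers had means of 11.16, 11.32 and 12.00 in *K14-Cdx2::L2-IL-1β* arrays, against 10.66, 11.11 and 9.59 in *L2-IL-1β* arrays. Of the columnar markers, 0 of 6 were called in limma or by SAM, and 0 at an unadjusted p under 0.05. Squamous markers ran from 12.41 to 12.74 in *K14-Cdx2::L2-IL-1β* arrays and from 12.64 to 12.79 in *L2-IL-1β* arrays. Of the 8, 1 was called lower (1.26% over all probe sets), Krt14 (log2FC -0.57, adjusted p = 0.042 in limma), whose promoter drives the Cdx2 transgene. At an unadjusted p under 0.05, 4 of the 8 were lower and 1 higher (7.68% and 6.0% over all probe sets). SAM called 2 lower and 0 higher (2.99% and 1.82%), and 4 were lower with no overlap between genotypes (11.5%). With an array left out, Krt14 passed only without 52540 (0.048) or 52542 (0.057). The part of tissue make-up in the spread of the mucins was not tested.

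**Figure D4:**
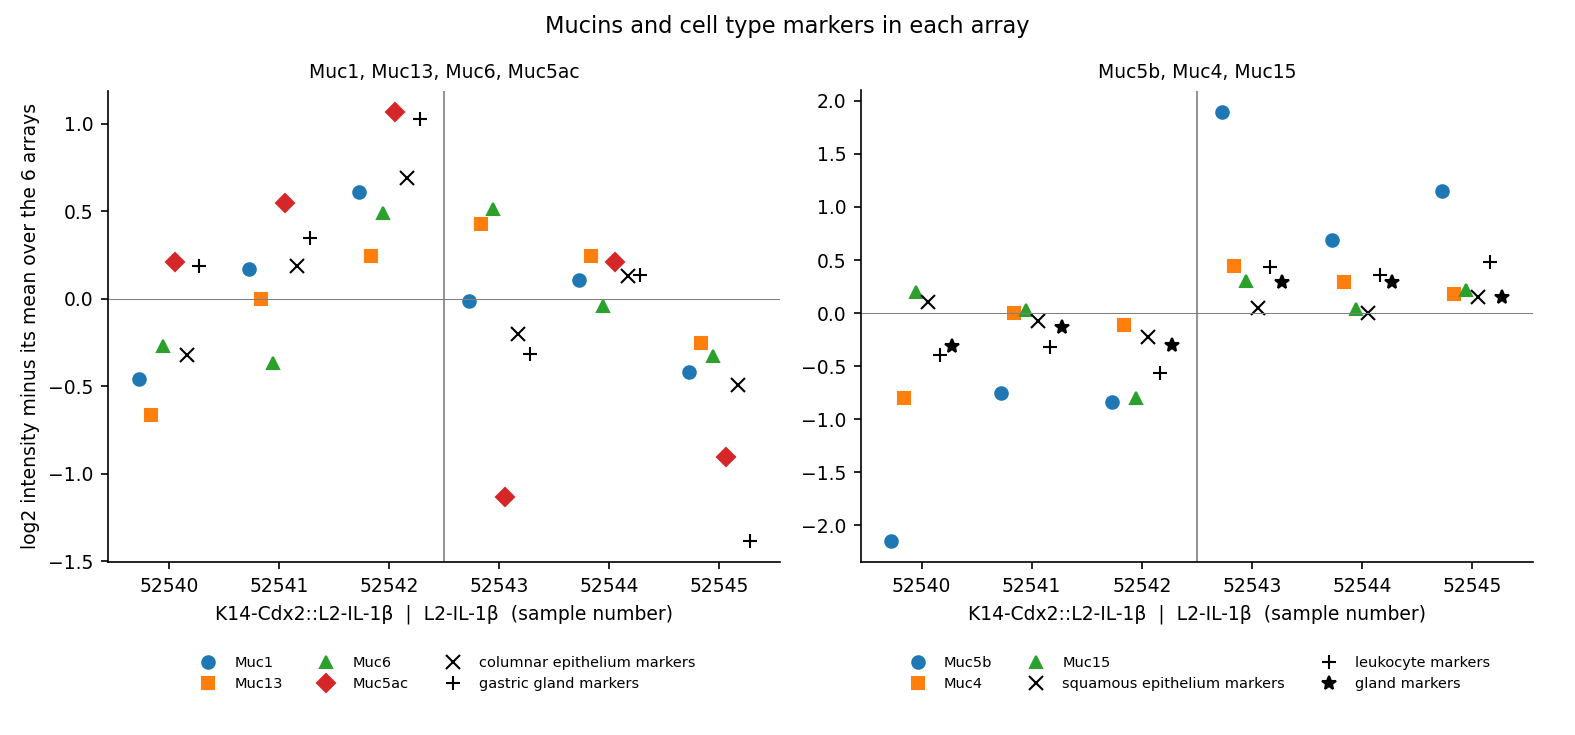
Log2 intensity in each array minus its mean over the 6 arrays, with *K14-Cdx2::L2-IL-1β* arrays left of *L2-IL-1β* arrays; colours are single mucins and black symbols the mean of a marker list (columnar and gastric gland markers on the left, squamous, leukocyte and gland markers on the right). Muc1 is lowest in 52540 and highest in 52542, as are the columnar markers among the *K14-Cdx2::L2-IL-1β* arrays, while Muc5b, Muc4, the leukocyte markers and the gland markers are each lower in all *K14-Cdx2::L2-IL-1β* arrays than in any *L2-IL-1β* array.

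Mucins need an assembly line of other proteins, and few of its genes passed. Of 10 other mucin-named or sialomucin genes measured, 0 were called in limma or by SAM, with a median log2 fold change of 0.05. Of these, 1 was lower at an unadjusted p under 0.05 (7.68% over all probe sets). It was Ovgp1, the oviduct mucin-like glycoprotein (log2 fold change -0.54, adjusted p = 0.26 in limma). The 18 polypeptide GalNAc-transferases, which place the first sugar on a mucin, had a median log2 fold change of 0.11, and 0 were called in limma or by SAM. In that list 1 was lower at an unadjusted p under 0.05 (7.68% over all probe sets), Galnt10 (log2FC -0.19, adjusted p = 0.31 in limma). Thus the enzymes that start the sugar chains did not pass in either direction. The 27 genes that extend, sialylate, fucosylate or sulfate the chains had a median of 0.07 and again 0 calls in limma or by SAM. At an unadjusted p under 0.05, 1 was lower and 2 were higher (7.68% and 6.0% over all probe sets). The gene with the smallest p of the 27 was B4galnt2, which makes the Sda blood group antigen on gut mucins. Its log2 intensities were 8.13, 7.62 and 9.13 in *K14-Cdx2::L2-IL-1β* nodules, against 6.57, 7.38 and 6.33 in *L2-IL-1β* nodules, with no overlap, and its log2 fold change of 1.53 (SE 0.43) did not pass (adjusted p = 0.20 in limma).

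Of 20 genes for mucin folding and for proteins that travel with mucus, 1 was called lower and 0 higher. Over all probe sets 1.26% were called lower and 0.576% higher. Fcgbp, a large mucus protein secreted with gel-forming mucins by goblet and gland cells, had log2 intensities of 7.62, 7.41 and 8.0 in *K14-Cdx2::L2-IL-1β* nodules, against 8.60, 8.86 and 8.49 in *L2-IL-1β* nodules. The genotypes did not overlap, and the log2 fold change was -0.98 (SE 0.17, adjusted p = 0.071 in limma). The adjusted p was 0.18 without 52541, 0.28 without 52543, 0.21 without 52544 and 0.17 without 52545. Of 19 transcription factors of mucous and goblet cells, 1 was called higher (0.576% over all probe sets), Cdx2 itself, and 0 lower. SAM and an unadjusted p under 0.05 also gave 0 lower. Of 10 binding partners and sheddases of membrane mucins, 0 were called in limma, 3 were lower at an unadjusted p under 0.05 (7.68% over all probe sets) and SAM called 1 lower (2.99% over all probe sets). Erbb3, a receptor of the EGF family, had the smallest p of them (log2FC -0.32, SE 0.07, adjusted p = 0.12 in limma).

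Cytokines, EGF ligands and their receptors that act on mucin genes held 3 genes called lower and 0 called higher of 22. Over all probe sets 1.26% were called lower and 0.576% higher, and the median log2 fold change of the list was -0.22. At an unadjusted p under 0.05 11 were lower and 0 higher (7.68% and 6.0% over all probe sets), SAM called 4 lower and 0 higher (2.99% and 1.82%), and 10 were lower with no overlap between genotypes (11.5%). Il17a, an interleukin known to induce MUC5B and MUC5AC in human airway cells, had log2 intensities of 7.13, 7.35 and 7.75 in *K14-Cdx2::L2-IL-1β* nodules, against 9.20, 8.91 and 8.69 in *L2-IL-1β* nodules (log2FC -1.52, SE 0.19, adjusted p = 0.042 in limma). The mouse gene Il1b had 7.45, 8.05 and 7.97 in *K14-Cdx2::L2-IL-1β* nodules, against 9.44, 8.93 and 9.94 in *L2-IL-1β* nodules (log2FC -1.61, SE 0.28, adjusted p = 0.070 in limma), whereas the transgene is human. Both cytokines were lower in every *K14-Cdx2::L2-IL-1β* array than in any *L2-IL-1β* array. Hbegf, a ligand of the EGF receptor, had 10.03, 10.36 and 10.63 in *K14-Cdx2::L2-IL-1β* nodules, against 11.38, 11.09 and 11.20 in *L2-IL-1β* nodules (log2FC -0.88, SE 0.16, adjusted p = 0.081 in limma). These genes moved beside the leukocyte markers given above, whose part was not tested. None of the 3 passed without sample 52541, 52543, 52544 or 52545, where their adjusted p ran from 0.11 to 0.32, and Il1b did not pass without 52542 either.

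**Figure D5:**
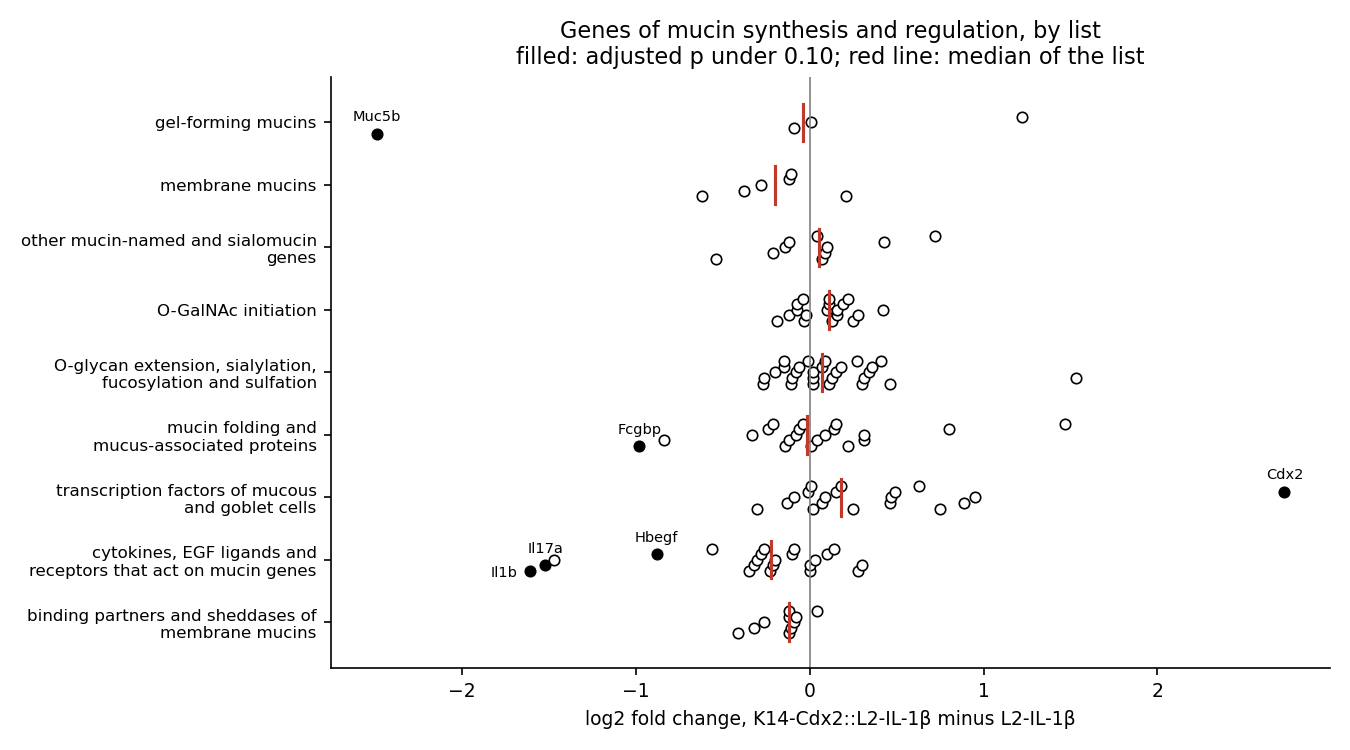
Log2 fold change (*K14-Cdx2::L2-IL-1β* minus *L2-IL-1β*) of every measured gene in the mucin lists and in 7 lists of mucin synthesis and regulation; points are genes, filled where the adjusted p was under 0.10 in limma, and red lines are list medians. The filled points are Muc5b, Fcgbp, Il1b, Il17a and Hbegf to the left of 0 and Cdx2 to the right.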

How the data were processed

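Total RNA of nodules from 3 *K14-Cdx2::L2-IL-1β* and 3 *L2-IL-1β* samples was run on Affymetrix mouse gene arrays, named as different types in the methods and in the design text. Samples were grouped by their labels. The log2 intensities per probe set were deposited by the authors. How they were summarised, background-corrected and normalized is not stated in the sources used, and that the arrays had been scaled to each other is inferred from their nearly equal medians. The 2 deposited tables with array values hold the same numbers. The authors' own comparison columns (ratio, fold change, SAM score, p and q) were not used. The submitters' notes name mm8, whereas the positions printed are those of the annotation (NCBIM37) or, for promoters, of RefSeq (GRCm38.p6).

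All 34365 probe sets were fitted with limma 3.58.1 (R 4.3.3; lmFit, then eBayes with 2.59 prior degrees of freedom) and genotype as the only term, with Benjamini-Hochberg adjustment and calls at an adjusted p under 0.10. Limma was used in place of the SAM of the methods, which was rebuilt with 20 relabellings (added constant 0.0336) as an alternative. Where a gene has several probe sets, the brightest on average stands for it. Exact permutation tests of single values were two-sided. The text names the 10 mucins, up to 4 genes of each list that passed with the smallest p or, where none passed, the 1 with the smallest p, the 3 nearest named genes on each side, and Cdx2. Some further markers are named where they show what a list held. Muc3a, Muc17, Mucl1 and Smgc were not found. The mucins, the lists and the tests were chosen with earlier results of these data known. Mesothelial markers and those of endothelium and fibroblasts were also read, with 0 of 6 called in each list, and smooth muscle markers had 0 of 6 called with a median log2 fold change of 0.52. At an unadjusted p under 0.05, 0 mesothelial, 1 endothelial or fibroblast and 2 smooth muscle markers were higher (6.0% over all probe sets). In these lists 0 were lower (7.68%), and SAM called 0 in either direction (2.99% lower and 1.82% higher over all probe sets). Of the 6 smooth muscle markers, 3 had every array with the Cdx2 transgene above every array without it (8.30% over all probe sets). The mesothelial list and the endothelial and fibroblast list had 0 such markers. The fit was tested on simulated data. The alternatives were quantile normalization once more, centring on the median, dropping probe sets with a mean below 6.64, eBayes with trend and robust, SAM, an equal-variance test, other thresholds, array weights, the other Muc2 probe set, the mean of both, and leaving out each array. Protein sequences were not analysed here. The number of arrays limits the precision. Python 3.11.15, pandas 2.3.3, scipy 1.17.1 and matplotlib 3.10.9 made the tables and figures.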

Additional observations from a re-analysis of the deposited data

How the results depend on the processing

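The Muc5b difference kept its direction under all 13 alternatives that gave a value and its call under 8 of them, with adjusted p from 0.029 to 0.30. With an equal-variance test the log2 fold change of -2.49 had an adjusted p of 0.30, and with each array left out it ran from -2.77 to -2.04. The count of mucins called lower was 1, against 0 with the equal-variance test, 0 at an adjusted p under 0.05 and 0 to 1 with an array left out, and the count called higher was 0 in all 15 settings. Signs turned for genes that were not called. Muc6 ran from -0.37 to 0.14, Muc2 from -0.08 to 0.11, Muc1 from -0.04 to 0.49 and Muc16 from -0.28 to 0.11 with an array left out, and Muc16 was 0.01 with array weights. Muc16 and Muc20 gave no value when dim probe sets were left out. The count of all probe sets called, 631 in limma, was 1652 with SAM, 1528 with array weights, 190 at an adjusted p under 0.05, 137 with a fold of 2 or more, 0 with the equal-variance test (4060 at its unadjusted p under 0.05) and 13 to 2026 with an array left out, lowest without 52543 and highest without 52540. The cause was not tested. The Muc2, Muc16 and Muc20 probe sets lie near or below the median intensity of all probe sets, and 3 arrays a genotype limit every interval given. No paired analysis was possible because each sample number occurs once, so that none links the genotypes.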

Other observations

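Sample 52542, the *K14-Cdx2::L2-IL-1β* array with the high pancreatic acinar genes, also held the highest value of Zg16, a lectin-like protein of pancreatic zymogen granules and of goblet cell mucus, which was picked out after its values were seen. Zg16 had log2 intensities of 4.49, 4.62 and 9.34 in *K14-Cdx2::L2-IL-1β* nodules, against 4.68, 4.72 and 4.63 in *L2-IL-1β* nodules. Its log2 fold change of 1.47 (SE 1.24) did not pass (adjusted p = 0.67 in limma), and it rests on that array, since without it the value was -0.12. The trefoil peptides, which are secreted with gastric and intestinal mucins and were also picked out after their values were seen, had adjusted p of 0.65 (Tff1), 0.83 (Tff2) and 0.75 (Tff3) in limma. Tff2 had log2 intensities of 13.11, 13.59 and 13.82 in *K14-Cdx2::L2-IL-1β* nodules, against 13.72, 13.69 and 13.46 in *L2-IL-1β* nodules, and Tff3 had 7.42, 7.42 and 7.70 in *K14-Cdx2::L2-IL-1β* nodules, against 7.50, 7.31 and 7.45 in *L2-IL-1β* nodules.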
